A study of Mus musculus with 3 samples.

Results

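The collagen genes were followed as a check for stromal RNA in leukocytes sorted from tumour-draining lymph nodes of mice. They were chosen by name alone, as every gene whose symbol is Col, a type number, the letter a and a chain number, and they came to 44 of the 17857 genes counted. B16F10 cells, a melanoma line of C57BL/6 origin, had been implanted in C57BL/6J mice at the front of each upper thigh and had grown for 14 days without treatment. The draining nodes were pooled, and cells that carried Ly6C and c-kit but not CD11c were sorted. The 3 libraries form 1 group of repeat experiments, called replicates 1, 2 and 3, and each was made from 8 ng of total RNA. No other population and no control mice were in the data, so each gene was set against a background level in its own library.

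Collagens are secreted proteins in which 3 chains wind into a helix that needs a glycine in each repeat of 3 residues. Fibroblasts and fibroblastic reticular cells make most of the fibrillar collagen of a lymph node, and its vessels rest on sheets of type IV collagen. Leukocytes are not known as major producers, so reads over the fibrillar and network genes are a common way to look for stromal cells or their RNA in a leukocyte sort.

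The repeat that marks a collagen can be read in its exons, many of which are 54 bases long and start with a glycine codon. An exon of this kind is shown for the 3 collagen genes that edgeR placed above background and for Col1a1 and Col3a1, the genes of the main fibroblast collagens. The glycine codons are in capitals, and the bases come from GENCODE M21 transcripts on GRCm38, plus strand, 5′ to 3′.
Col11a2: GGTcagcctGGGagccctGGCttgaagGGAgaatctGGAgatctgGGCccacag
Col20a1: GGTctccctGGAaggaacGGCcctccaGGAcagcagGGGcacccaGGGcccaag
Col9a3: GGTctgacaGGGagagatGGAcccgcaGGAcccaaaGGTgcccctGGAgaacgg
Col1a1: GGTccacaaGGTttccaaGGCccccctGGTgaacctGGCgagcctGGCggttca
Col3a1: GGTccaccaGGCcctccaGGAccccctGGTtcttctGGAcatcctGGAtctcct
These are coding exon 15 of Col11a2 (chr17:34051480-34051533), exon 27 of Col20a1 (chr2:181009377-181009430), exon 6 of Col9a3 (chr2:180601582-180601635), exon 8 of Col1a1 (chr11:94939904-94939957) and exon 6 of Col3a1 (chr1:45325360-45325413). The longest unbroken run of glycine triplets was 338 in Col11a2, 32 in Col20a1, 113 in Col9a3, 338 in Col1a1 and 344 in Col3a1. Col11a2 thus has the long helix of the fibril-forming chains, as Col1a1 and Col3a1 do, while Col20a1 and Col9a3 have the shorter or interrupted helices of chains that sit on fibrils.

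Totals were 9077195, 13885509 and 13861430 counts in replicates 1, 2 and 3. Levels are in normalised read counts (CPM) after TMM scaling and, for comparison between genes, in CPM per kilobase of the deposited gene length. The background was the 99th percentile of the 578 olfactory receptor genes, sensory genes that leukocytes rarely use, and it lay at 1.75, 0.472 and 0.732 CPM per kilobase in replicates 1, 2 and 3. For a collagen gene of the median length, 5938.5 bases, that is 99.1, 39.3 and 57.0 counts. For an olfactory receptor gene of the median length, 948 bases, it is 15.8, 6.27 and 9.09 counts. The background thus rests on few counts over short genes, and whether it suits genes as long as the collagens was not tested. Of the sort's own markers, Kit had 93, 75 and 78 counts, Ly6c1 181, 60 and 232, Ly6c2 109, 1699 and 543, and Itgax, the gene of the CD11c that sorted cells were to lack, 255, 606 and 316. Per kilobase, Kit stood 1.08, 2.19 and 1.57 times above the background and Itgax 3.80, 22.8 and 8.19 times, so the gene of the marker sorted against stood higher than that of a marker sorted for. In the edgeR test against the background described below for the collagens, Itgax was called above (adjusted p = 6.97e-14) and Kit was not separated (0.276). The sort read surface protein, whereas the data used here hold RNA counts alone, so the 2 could not be compared. The 6 leukocyte markers, among them Ptprc (CD45), stood above the background in every library.

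Almost all collagen genes lay under the background, which marks the upper end of the olfactory receptor genes and not their centre. Of the 44, 2 exceeded the background in all 3 libraries (4.55%, against 54.9% of all genes), 1 in 2 libraries, 3 in 1 library and 38 in none. The median collagen gene was read at 0.737, 0.0576 and 0.158 CPM per kilobase, against 3.30, 2.88 and 2.86 for the median of all genes. For the median olfactory receptor gene it was 0.112, 0 and 0. Pooled over their lengths, the collagens stood at 3.77, 10.7 and 7.33 times the olfactory receptor genes. Outside the 3 genes called below, the other 41 stood at 3.32, 4.53 and 3.69 times. The family was thus above the typical olfactory receptor gene. Pooled in the same way, keratin genes stood at 3.48, 15.0 and 4.92 times the olfactory receptor genes. Vomeronasal receptor genes, another sensory family, stood at 0.821, 3.89 and 1.84 times. A level above the olfactory receptor genes was therefore not particular to the collagens. All collagens together took 2451, 909 and 1365 counts, which is 0.0270% of replicate 1 (0.0260 to 0.0281%, the 95% Wilson interval), 0.00655% of replicate 2 (0.00613 to 0.00699%) and 0.00985% of replicate 3 (0.00934 to 0.0104%). Reads carry no molecular identifier here, so such intervals cover counting error only. In bulk RNA of this kind, fewer cells of a type and less RNA per cell cannot be told apart.

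**Figure D1:**
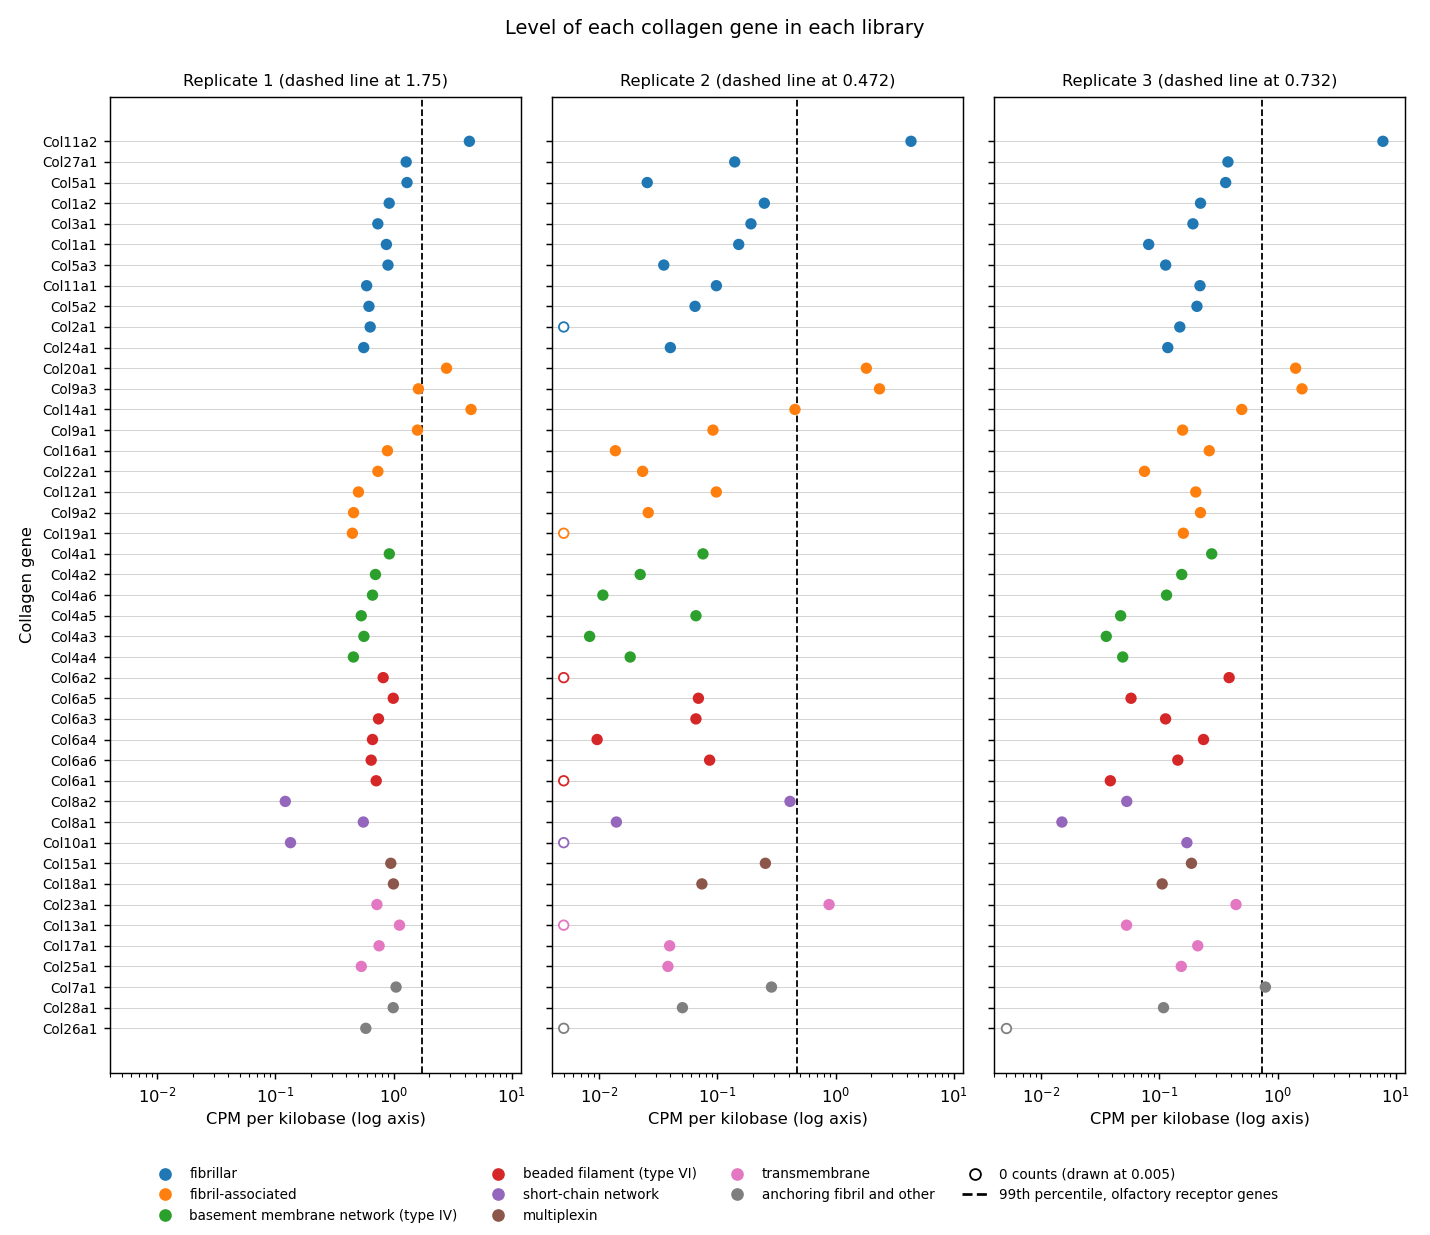
Level of each collagen gene in CPM per kilobase (log axis) in the 3 libraries, with the olfactory receptor 99th percentile of each library as a line. Col11a2 and Col20a1 lie above the line in all 3 libraries, and 38 of the 44 genes lie below it in every library.

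The highest was Col11a2, which encodes a chain of type XI collagen, a minor partner in cartilage fibrils. It was read at 234, 342 and 572 counts in replicates 1, 2 and 3, or 4.39, 4.35 and 7.79 CPM per kilobase (mean 5.51 ± 1.98, SD, n = 3). These levels were 2.50, 9.23 and 10.6 times the background of the same library, and replicate 3 was highest.

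Col20a1, a fibril-associated collagen with a short helix, was read at 112, 107 and 78 counts, or 2.81, 1.82 and 1.42 CPM per kilobase (2.02 ± 0.715). It stood 1.60, 3.86 and 1.94 times above the background, so it passed by less than 2 times in replicates 1 and 3. Col9a3, a chain of the type IX collagen that coats cartilage fibrils, was read at 44, 94 and 60 counts, or 1.62, 2.36 and 1.61 CPM per kilobase (1.86 ± 0.427). It was 0.926, 4.99 and 2.20 times the background, just short of it in replicate 1. Its partner chains Col9a1 (59, 5 and 8 counts) and Col9a2 (12, 1 and 8 counts) lay under the background in every library.

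When edgeR's quasi-likelihood test set each gene against the olfactory receptor background, with Benjamini-Hochberg adjustment across all 15490 genes that entered it, these 3 collagens were called above it. That is 3 of 44, against 63.1% of all genes tested. Their log2 levels over the background were 2.90 ± 0.75 (SE) for Col11a2 (edgeR adjusted p = 2.67e-08), 1.43 ± 0.62 for Col9a3 (0.0114) and 1.30 ± 0.64 for Col20a1 (0.0280). In this fit edgeR estimated infinite prior degrees of freedom, so a gene's own spread hardly counted and these p-values are too small for 3 libraries. Why it did so was not tested. DESeq2 and limma called Col11a2 alone, against 60.8% and 61.1% of all genes tested. Without replicate 3 edgeR called 0 collagens (1 at an unadjusted p under 0.05), against 58%. Col11a2 then stood at 2.55 (edgeR adjusted p = 0.0523). In this fit the p-values rest mainly on a spread pooled over the 15490 genes tested. The fit against 1 CPM, described below, pools in part (5.949 prior degrees of freedom). The labels do not say how many mice each pool held, so the spread between the 3 samples may be technical.

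The 3 genes are not free of neighbours. In GENCODE M21, Col11a2 starts 1037 bases downstream of the end of Rxrb, a nuclear receptor gene on the same strand with 328, 842 and 582 counts. Col9a3 starts 1953 bases downstream of the end of Ogfr, also on the same strand, with 492, 1126 and 1009 counts, and shares 234 exonic bases (6.07%) with Tcfl5 on the opposite strand. Only these 2 of the 44 collagens have a coding gene ending within 2000 bases upstream on their own strand. Col20a1 shares 79 exonic bases with the noncoding BX649560.1. In all, 13 of the 44 collagens share exonic bases with another gene, and the share in Col9a3 is the largest. In CPM, Rxrb and Ogfr were highest in replicate 2. Col9a3 was also highest there, and Col11a2 in replicate 3. The part of the neighbours in these counts was not tested.

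The genes nearest below were uneven between libraries. Col14a1, a fibril-associated collagen of soft tissue, was read at 278, 41 and 42 counts, or 4.53, 0.454 and 0.497 CPM per kilobase. It was the highest of all collagens in replicate 1 and under the background in the others. Col7a1, which forms the anchoring fibrils of skin, was read at 92, 37 and 95 counts and passed in replicate 3 (1.08 times the background). Col23a1, a transmembrane collagen, was read at 39, 70 and 33 counts and passed in replicate 2 (1.87 times). Their log2 levels over the background were 0.50 ± 0.67, -0.39 ± 0.63 and -0.07 ± 0.62 (SE), and the edgeR test did not separate them from it (adjusted p = 0.463, 0.580 and 0.923).

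The collagens that fibroblasts make in quantity were among those under the background. Col1a1 was read at 39, 10 and 5 counts in replicates 1, 2 and 3, or 0.870, 0.151 and 0.0811 CPM per kilobase. Col1a2, whose product joins that of Col1a1 in type I collagen, was read at 45, 18 and 15 counts, and Col3a1, the main chain of reticular fibres, at 39, 15 and 14. All 3 genes were under the background in each library and highest in replicate 1.

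Col5a1 and Col5a2, chains that set the width of type I fibrils, were read at 104, 3 and 40 counts and at 39, 6 and 18. Among the other fibrillar genes, Col27a1 had the most counts (93, 15 and 38), and Col2a1, the cartilage collagen, had 31, 0 and 10. Col5a3 had 52, 3 and 9 counts and Col24a1 38, 4 and 11. Col11a1, the chain that joins the product of Col11a2 in type XI collagen, was read at 41, 10 and 21 counts, so it did not share the level of its partner (0.592, 0.0980 and 0.220 CPM per kilobase, against 4.39, 4.35 and 7.79 for Col11a2). Of the 11 fibrillar genes, 10 lay under the background in every library, with Col11a2 the exception. Fibrillar genes together reached 79.4, 30.4 and 57.5 CPM, of which Col11a2 supplied 24.6, 24.4 and 43.7.

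The network collagens were under the background as well. Col4a1 and Col4a2, the paired chains of nearly all basement membranes, were read at 58, 7 and 24 counts and at 43, 2 and 13 counts. Col4a3, Col4a4, Col4a5 and Col4a6, the chains of more restricted membranes such as that of the kidney glomerulus, ranged from 33 to 46 counts in replicate 1, from 1 to 6 in replicate 2 and from 4 to 10 in replicate 3. The 6 type IV genes summed to 256, 19 and 60 counts. Col6a1 and Col6a2, the chains of the type VI microfibrils around cells, were read at 27, 0 and 2 counts and at 29, 0 and 19 counts, and Col6a3, their long partner chain, at 77, 10 and 16. Col6a5 and Col6a6, neighbours that share some sequence, had 88, 9 and 7 counts and 46, 9 and 14 counts. Col6a4 had 47, 1 and 23. The 6 type VI genes summed to 314, 29 and 81 counts. All 12 genes lay under the background in every library and all 12 were highest in replicate 1.

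Of the fibril-associated genes not yet named, Col12a1 had 56, 16 and 31 counts, Col16a1 44, 1 and 18, Col19a1 45, 0 and 22 and Col22a1 43, 2 and 6. Col15a1 (48, 19 and 13 counts) and Col18a1 (55, 6 and 8), the multiplexins of basement membranes, were under the background in every library. So were the short-chain genes Col8a1 (27, 1 and 1), Col8a2 (5, 25 and 3) and Col10a1 (4, 0 and 7). The transmembrane genes other than Col23a1 were also under it, with 39, 3 and 15 counts for Col17a1, a protein of the junction between skin layers, 38, 4 and 15 for Col25a1 and 31, 0 and 2 for Col13a1. Col28a1 had 40, 3 and 6 counts and was under the background in every library. Col26a1 had 15 counts in replicate 1 and 0 in the others, where 3 counts, taken here as the limit for a count of 0, are 0.214 and 0.229 CPM. With no count at all there were 0, 7 and 1 collagens in replicates 1, 2 and 3, so each collagen had at least 4 counts in the shallowest library.

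Tested below the olfactory receptor background, 22 of the 44 collagens were called by edgeR, against 5.80% of all genes tested. They included 5 of 6 type IV and 5 of 6 type VI genes, but neither Col1a1 (log2 level over the background -1.68 ± 0.76, adjusted p = 0.0780) nor Col3a1 (-1.46 ± 0.72, adjusted p = 0.0986). The count is unstable: it was 0 in DESeq2 (0 at an unadjusted p under 0.05), 35 in limma, 0 without replicate 3, 6 without replicate 2 and 8 without replicate 1. The shares of all genes tested were 0, 17.9, 0, 5.35 and 1.77% in the same order. The median collagen lay at -1.92 log2 units from the background, against 2.89 for all genes tested. The filter of at least 10 summed counts admitted all 44 collagens but only 42 of the 578 olfactory receptor genes. Genes tested had a median length of 2832 bases, against 5938.5 for the collagens. The shares called below are therefore not matched for length, and the part of length in them was not tested.

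A level not scaled by length gives another picture. Against 1 CPM, edgeR called 11 of the 44 collagens above, against 68.6% of all genes tested. Col11a2 led with 4.95 ± 0.21 log2 units over 1 CPM (SE, edgeR adjusted p = 3.24e-10), followed by Col14a1, Col20a1, Col7a1, Col9a3, Col5a1, Col27a1, Col23a1, Col6a5, Col6a3 and Col12a1, which had 1.64 ± 0.58 (adjusted p = 0.0148). Of the 11, 5 never exceeded the background per kilobase, and those 5 (Col5a1, Col6a3, Col6a5, Col12a1 and Col27a1) are between 7635 and 11659 bases long. Against 1 CPM per kilobase, 3 collagens were called above (62.5% of all genes tested), the same genes as against the olfactory receptor background. Without replicate 1 the count above 1 CPM was 6 (78.2% of all genes tested), and without replicate 2 it was 22 (71%).

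**Figure D2:**
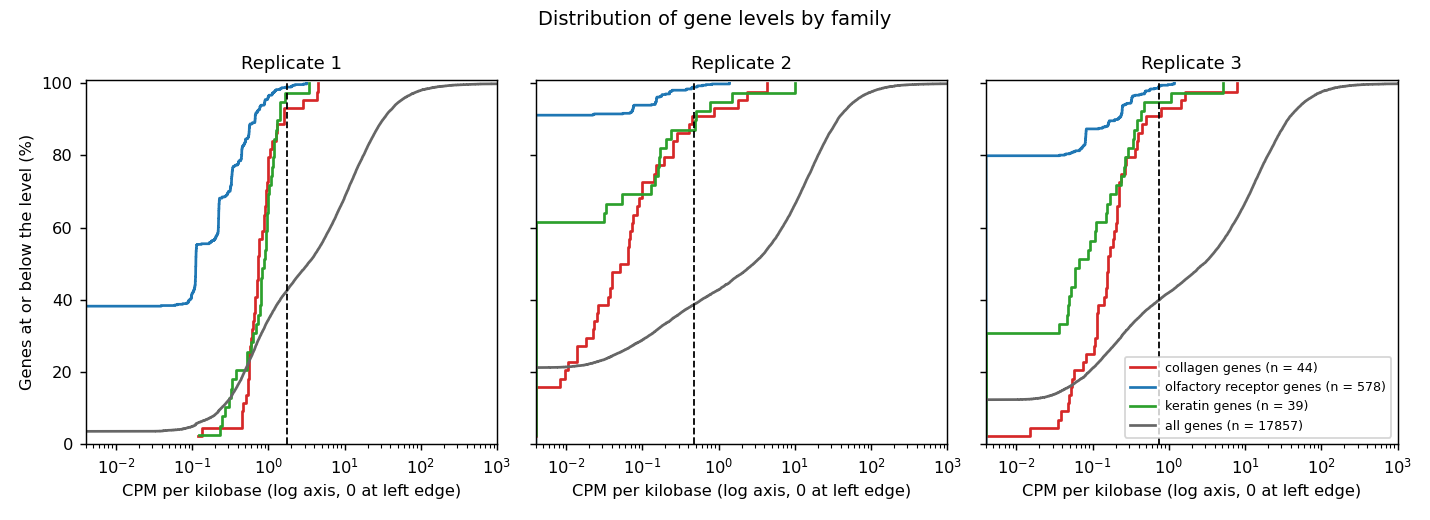
Cumulative share of genes (%) at or below each level in CPM per kilobase (log axis) for collagen, olfactory receptor, keratin and all genes, 1 panel per library, with the olfactory receptor 99th percentile dashed. The collagen median is 0.737, 0.0576 and 0.158 in replicates 1, 2 and 3, against 3.30, 2.88 and 2.86 for all genes.

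Collagen reads were concentrated in replicate 1. Of the 44 collagens, 39 were highest in replicate 1 (88.6%), against 47.6% of all genes, and 34 were lowest in replicate 2. Keratin genes, which epithelia use, were highest in replicate 1 for 34 of 39 members (87.2%). Summed collagen levels were 257.6, 64.8 and 104 CPM. Replicate 1 thus held 3.97 times the level of replicate 2 and 2.47 times that of replicate 3. For the type IV genes, at 26.9, 1.36 and 4.58 CPM, the ratios were 19.9 and 5.87.

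Other gene sets were highest in replicate 1 as well. Olfactory receptor genes summed to 151, 13.3 and 31.4 CPM, or 11.3 and 4.81 times their levels in replicates 2 and 3. Fibroblast and reticular markers summed to 18.6, 0.642 and 7.94 CPM (29.0 and 2.34 times), endothelial markers to 43.6, 9.70 and 12.1 (4.50 and 3.59 times) and pericyte and smooth muscle markers to 17.1, 4.49 and 6.26 (3.81 and 2.74 times). The same held for macrophage markers (1249, 104 and 261 CPM) and erythroid markers (4261, 64.6 and 310 CPM), whereas leukocyte markers (4576, 5911 and 5709 CPM) were lowest there. The part of these sets in the collagen counts was not tested. The 3 collagens called above the background supplied 40.99, 38.7 and 54.2 CPM and the other 41 supplied 217, 26.1 and 50.01, a split made on the same levels against a background that was itself highest in replicate 1, so nothing is read from it. The 3 called genes made up 15.9% of collagen counts of replicate 1, with a 95% Wilson interval of 14.5 to 17.4%. In replicate 2 they made up 59.7% (56.5 to 62.9%), and for replicate 3 the figure was 52.0% (49.4 to 54.7%).

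**Figure D3:**
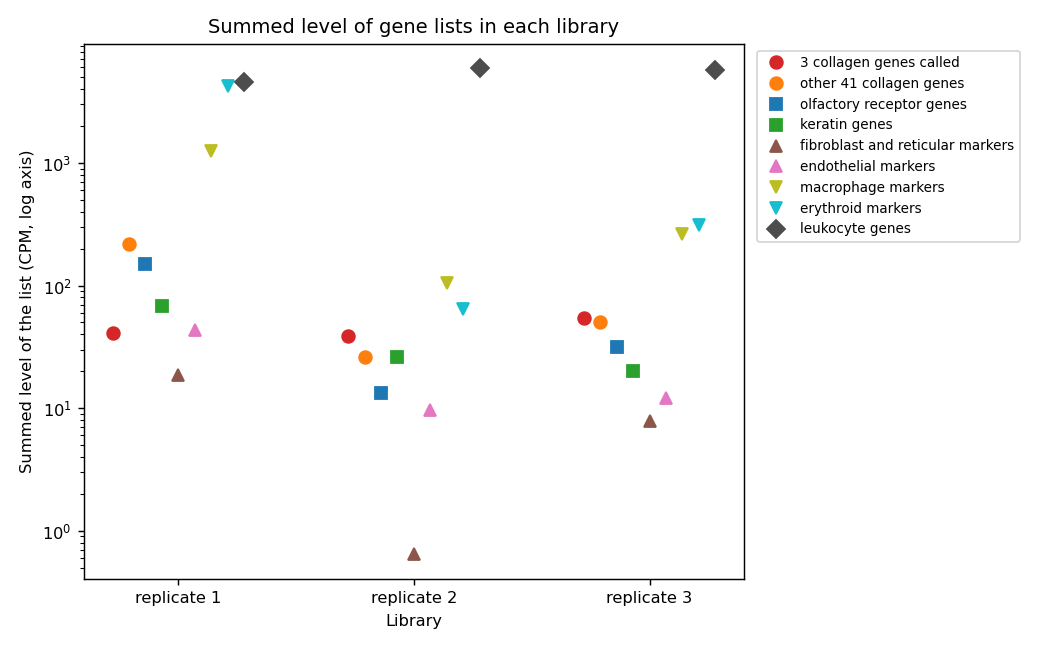
Summed CPM (log axis) in each library of the 3 called collagens, the other 41 collagens and 7 other gene sets, as 1 point per set, offset sideways so that they do not cover each other. The other 41 collagens, the olfactory receptor and keratin genes, and the fibroblast, endothelial, macrophage and erythroid markers are highest in replicate 1, where the leukocyte genes are lowest.

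Markers of the stromal cells that make collagen were mostly under the background. Of 10 fibroblast and reticular markers, 0 exceeded the background in all 3 libraries, against 54.9% of all genes. Ccl19 and Ccl21a, the chemokines of T zone reticular cells, had no count in any library, Pdpn had 0, 0 and 5 counts, and Lum had 1, 0 and 3. Cxcl13, made by follicular stroma, was the highest of the list with 66, 5 and 62 counts, which is 3.403, 0.651 and 5.56 times the background. In the edgeR test against the background it was called above (log2 1.69 ± 0.63, SE, adjusted p = 0.00189), and it was also called by DESeq2 (adjusted p = 0.0458) and limma (0.0468) but not by edgeR without replicate 3 (0.388). Over the alternatives run for it the adjusted p ranged from 2.72e-07 with the 95th percentile to 0.878 with keratin genes as background. Pdgfra followed with 54, 1 and 19 counts. Of 10 endothelial markers, 0 exceeded the background in all libraries, against the same 54.9% of all genes. Vwf was highest with 189, 54 and 103 counts, which is 1.28, 0.926 and 1.22 times the background. Kdr followed with 59, 29 and 19, while Lyve1 had 7, 0 and 0 counts and Cldn5 none. Of 6 pericyte and smooth muscle markers 0 exceeded it in all libraries, again against 54.9%. Myh11 (59, 18 and 41 counts) and Acta2 (10, 1 and 19) were highest per kilobase. Acta2 passed in replicate 3 (1.11 times the background). Cspg4 (35, 2 and 5) and Rgs5 (4, 0 and 0) were lowest. Of 7 melanoma markers 1 exceeded the background in all libraries (14.3%, against 54.9% of all genes). It was Mitf (131, 109 and 86 counts), which other cells also use. The edgeR test did not separate Mitf from the background (adjusted p = 0.0747). Mlana had 7, 0 and 9 counts and Pmel 25, 8 and 22. Both passed in replicate 3 alone, at 2.04 and 1.08 times the background. Dct had 11, 0 and 1 counts and Sox10 7, 0 and 3.

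**Figure D4:**
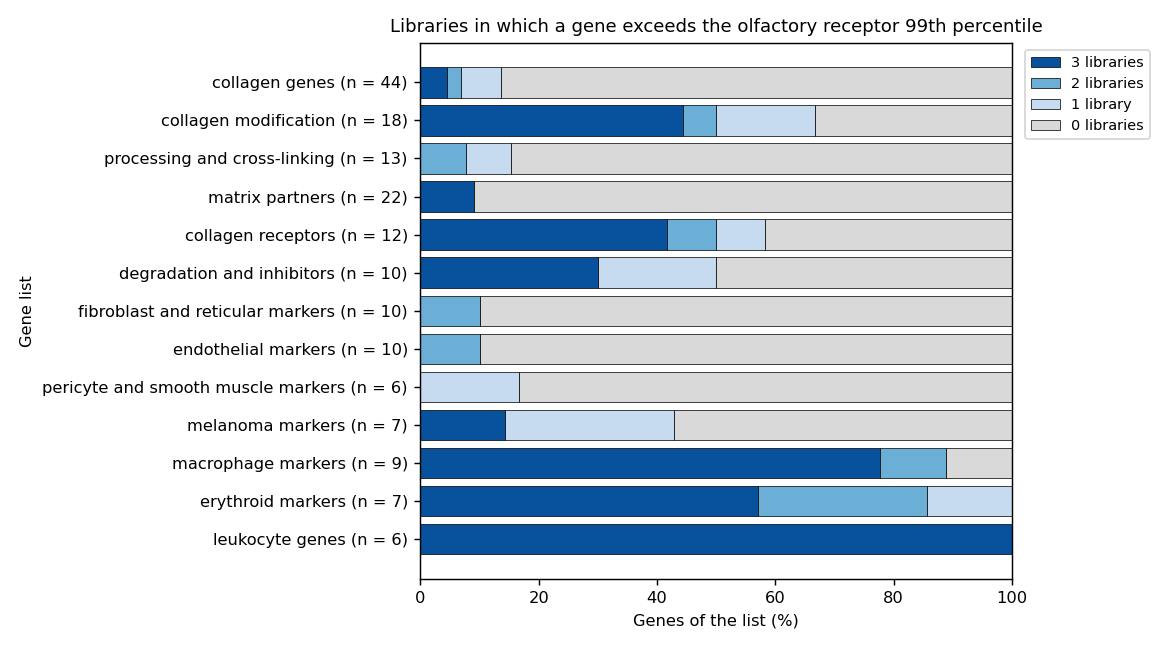
Share of each gene list (%) whose members exceeded the olfactory receptor 99th percentile in 3, 2, 1 or 0 libraries, with the number of members. The darkest segment, for 3 libraries, is 4.55% for collagens and absent for the fibroblast, endothelial and pericyte markers.

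The enzymes that build collagen were read at widely different levels. Of 18 genes of collagen folding, hydroxylation, glycosylation and export, 8 exceeded the background in all 3 libraries (44.4%, against 54.9% of all genes). Ppib, a prolyl isomerase of the endoplasmic reticulum, was read at 1363, 1584 and 1717 counts, and P4hb, a disulphide isomerase that is also a prolyl hydroxylase subunit, at 1393, 2192 and 1719. At the other end, Serpinh1, the chaperone dedicated to collagen, had 10, 2 and 0 counts and Fkbp10 had 7, 1 and 1.

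Of 13 genes that trim or cross-link secreted collagen, 0 exceeded the background in all libraries, against the same 54.9% of all genes. Adamts14, a procollagen peptidase, was the highest with 85, 835 and 275 counts and just missed it in replicate 1 (1.72 CPM per kilobase, against 1.75). In the edgeR test against the background Adamts14 was called above (log2 3.36 ± 0.75, SE, adjusted p = 2.86e-12). Pcolce2, next per kilobase, had 40, 6 and 8 counts. Lox, which cross-links collagen, had 7, 0 and 3 counts, and Adamts2 had 12, 0 and 0. Of 22 matrix partners, 2 exceeded it in all libraries (9.09%, against the same 54.9%). They were Fn1 (1301, 9195 and 1402 counts), the fibronectin gene, and Lamc1 (181, 152 and 182), a laminin chain. The edgeR test called Fn1 above the background but did not separate Lamc1 from it (adjusted p = 0.0587). Fmod (6, 0 and 0) and Lum were lowest.

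Of 12 collagen receptors, 5 exceeded the background in all 3 libraries (41.7%, against 54.9% of all genes). Itgb1, the beta chain of the collagen-binding integrins, was read at 3539, 4190 and 4512 counts, and Lair1, an inhibitory collagen receptor of leukocytes, at 383, 424 and 326. Itga2, Ddr1 and Itga1 were the others. Mrc2 (19, 1 and 3) and Oscar (4, 1 and 0) were lowest. Of 10 genes of collagen breakdown, 3 exceeded the background in all 3 libraries (30%, against 54.9% of all genes). They were Timp2, a protease inhibitor, with 556, 593 and 582 counts, and the neutrophil proteases Mmp9, with 272, 57 and 771, and Mmp8, with 73, 115 and 326. Mmp13 had 8, 4 and 0 counts and Timp1 none.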

How the data were processed

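Bulk RNA was sequenced from 3 libraries of 1 sorted population, prepared with a stranded total RNA kit for low inputs, per the labels' protocols. The authors deposited whole-number counts per gene with a gene length. bcl2fastq, STAR 2.75, featureCounts, DESeq2 1.18.1 and mm10 are named, without roles, per the submitters' processing notes. Annotation release, strand setting and gene filter are not given in the sources used here, so overlapping genes may share reads.

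From these counts, edgeR 4.0.16 gave CPM, scaled by TMM factors (1.05, 1.01 and 0.945). Genes with a summed count of at least 10 (15490) were tested with edgeR's quasi-likelihood test, intercept alone, the level tested against in the offsets, two-sided, Benjamini-Hochberg threshold 0.05. edgeR's own test function takes no design with an intercept alone, so its F statistic was formed from the fitted deviances. It was run on simulated counts with 1 fixed dispersion, lower than in the real fit against the background (0.450 to 1.16). That run therefore cannot show whether the p-values of the real fit are sound. Standard errors come from the model's information and the posterior dispersion. Alternatives used DESeq2 1.42.0 and limma 3.58.1. Gene spans and exons come from GENCODE M21 on GRCm38, the assembly of mm10. Sharing of 50-base words between a collagen and other genes reached at most 4.87% of a gene, in Col9a3, and 28 collagens shared none.

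The rule for named genes took all collagens called or nearest to the background or with no count in 2 or more libraries, Col1a1, Col1a2, Col3a1, Col5a1, Col5a2, Col4a1, Col4a2, Col6a1, Col6a2 and Col6a3, and the 2 highest and 2 lowest per kilobase of each other list. The other collagens and list members given were added after their values were seen, the collagens so that each is named. The macrophage, erythroid and leukocyte lists are given as sums and not by these members. The collagen genes and lists were chosen with earlier results of these data known.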

Additional observations from a re-analysis of the deposited data

How the results depend on the processing

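A percentage in brackets here is the share of all genes, or of all genes tested, called at the same setting. The count of collagens above the olfactory receptor background in all 3 libraries was 2 (54.9%). It was 5 with the 95th percentile (60.6%), 1 with the highest olfactory receptor gene (48.8%) and 14 in CPM not scaled by length (61%). With keratin genes as background it was 0 (39.6%). They number 39, so that the percentile is close to the top gene, Krt80. Leaving out a replicate gave 2 to 3 (55.5 to 58.1%). The edgeR count above the background was 3 (63.1%). It was 5 with the 95th percentile (69%), 1 with the highest olfactory receptor gene (56.7%) and 0 with keratin genes (43.8%; 0 collagens at an unadjusted p under 0.05). It was 1 in DESeq2 (60.8%), 1 in limma (61.1%), and 0 to 3 with a replicate left out (58 to 76.2%). Against keratin genes the log2 levels of Col20a1 and Col9a3 turned to -0.84 and -1.12. The edgeR count below the background was 22 (5.8%). It was 0 with the 95th percentile (0.239%, with 1 collagen at an unadjusted p under 0.05), 36 with the highest gene (15%) and 1 with vomeronasal receptor genes (0.549%). It was 8 with keratin genes (1.96%) and 2 with edgeR's own filter (1.63%). In DESeq2 it was 0 (0%, with 0 collagens unadjusted), in limma 35 (17.9%), and with a replicate left out 0 to 8 (0 to 5.35%). The edgeR count above 1 CPM was 11 (68.6%). It was 3 against 1 CPM per kilobase (62.5%), and 6 to 22 with a replicate left out (69.7 to 78.2%). Against 1 CPM per kilobase the log2 levels turned negative for Col12a1 (-1.90), Col6a3 (-1.71), Col6a5 (-1.43), Col5a1 (-0.84), Col27a1 (-0.74), Col23a1 (-0.55) and Col7a1 (-0.50), a change made by dividing by length. With a replicate left out, the log2 level over 1 CPM ran from -0.083 to 2.20 for Col6a3 and from -0.80 to 2.34 for Col6a5, both lowest without replicate 1. The causes of the other changes were not tested. Numbered olfactory receptor genes alone, chosen after seeing the data, gave 2 (54.8%) and 3 (63%) above and 22 (6.06%) below. No paired analysis was possible because the libraries form 1 group. Low counts limit most collagens, which had a median of 43, 4.5 and 13.5 counts in replicates 1, 2 and 3.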
